A study of Homo sapiens with 20 samples.

Results

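ASL, RGS11 and AIFM3 were 3 of the 18417 genes measured in LNCaP, an established androgen-responsive human prostate cancer line. They were taken by name, and the names had been selected on measured values: among 5 groups of arrested cells, these were the 3 genes that a limma fit called higher in late G1, the roscovitine arrest, than in the mean of the other 4 arrests. That this contrast chose them is inferred from the fit, and the 3 genes are treated as chosen by it. Each gene had 1 transcript cluster, the array's unit of summary, with the identifiers 8133122 for ASL, 7998190 for RGS11 and 8071444 for AIFM3. By its title and design, the study asked how the response of transcripts to the androgen dihydrotestosterone (DHT) varies with cell cycle phase. Expression was read on 20 Affymetrix human gene arrays in 7 groups.

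Late G1 (n = 3) was obtained by 24 h of 5 µg/mL roscovitine, which blocks several cyclin-dependent kinases. Early G1 (n = 3) followed 24 h of 0.5 µM PD-0332991, which blocks CDK4 and CDK6. Early S (n = 2) followed 24 h of 2 µg/mL aphidicolin, which stops replicative DNA polymerases, and late S (n = 3) followed 24 h of 1 mM hydroxyurea, which starves replication of nucleotides. G2/M (n = 3) was reached by 15 h of 2 µg/mL aphidicolin, its removal, and 9 h of 50 ng/mL nocodazole, a microtubule poison. Each of these 5 arrests was in hormone-proficient medium with 10 nM DHT added 3 h before harvest. The CDT + DHT group (n = 3) was not arrested, and spent 72 h in what the labels name CDT with DHT for 3 h, while the CDT group (n = 3) spent the same time there with EtOH (ethanol) for 3 h. The phases are those of the labels. Each arrest had its own drug treatment, so drug and phase cannot be told apart when late G1 is set against the other arrests. When an arrest is set against CDT or CDT + DHT, drug, medium and phase cannot be told apart. Against CDT, DHT differs as well, and no arrest lacking DHT was among the groups. Separate cultures per replicate are not stated, so the p-values cover array-to-array spread, which may be technical.

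ASL encodes argininosuccinate lyase, an enzyme of the urea cycle that splits argininosuccinate into arginine and fumarate. Outside the liver it works with ASS1, which makes argininosuccinate, to rebuild arginine from citrulline. RGS11 belongs to the R7 family of regulators of G protein signalling, which form dimers with the G protein beta subunit encoded by GNB5 and speed the shutdown of alpha subunits of the Gi/o class. RGS11 is best known from neurons and the retina. AIFM3, also called AIFL, encodes a mitochondrial flavoprotein related to the apoptosis-inducing factor AIFM1.

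The 250 bases before and 50 bases after the RefSeq start of a gene (build GRCh38.p14) are shown for ASL and AIFM3, because these are the promoters of genes that stood high together in late G1. RGS11 also stood high there, but the promoter set used had no entry for it. Capitals mark the GC box, with the letters GGGCGG, and the CCAAT box, both searched on either strand, and the marked matches of one did not overlap those of the other.
ASL, chr7:66075569-66075868, plus strand: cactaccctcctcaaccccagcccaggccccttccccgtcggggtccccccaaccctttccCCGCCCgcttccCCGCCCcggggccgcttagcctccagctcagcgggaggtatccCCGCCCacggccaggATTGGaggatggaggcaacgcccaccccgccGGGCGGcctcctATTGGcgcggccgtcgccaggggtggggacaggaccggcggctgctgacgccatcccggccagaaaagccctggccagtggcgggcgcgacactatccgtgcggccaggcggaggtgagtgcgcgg
AIFM3, chr22:20964922-20965221, plus strand: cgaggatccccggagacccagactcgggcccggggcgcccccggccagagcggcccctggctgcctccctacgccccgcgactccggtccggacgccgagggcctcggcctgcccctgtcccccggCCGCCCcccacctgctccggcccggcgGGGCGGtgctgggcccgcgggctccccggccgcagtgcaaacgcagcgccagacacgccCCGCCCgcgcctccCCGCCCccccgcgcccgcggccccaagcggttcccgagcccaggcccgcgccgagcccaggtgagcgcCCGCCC
ASL held 4 GC boxes and 2 CCAAT boxes, and AIFM3 held 5 GC boxes and 0 CCAAT boxes. Of 27305 RefSeq promoters of this length, 44.6% held a GC box and 35.7% a CCAAT box. The G and C content was 74.0% for ASL and 83.3% for AIFM3, against a median of 58.3% over these promoters. On both strands, 0 matches were found in either window for the letters TATAAA, which 12.0% of the promoters held, for the E box CACGTG, which 7.43% held, and for the cell cycle element CHR, searched as TTTGAA, which 15.4% held. A match is a description of letters and not a measured binding site.

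The array median lay between 5.44 and 9.08 intensity units. Across the 3305 genes with a mean log2 value of at least 5, which are not independent replicates, the median correlation was 0.871 for the 19 pairs of arrays within groups (from 0.611) and 0.781 for the 171 pairs between groups (from 0.424). CDT replicate 1 had the lowest median correlation with the other arrays (0.659), followed by late S replicate 1 (0.709) and CDT + DHT replicate 3 (0.711). Of 6 listed luminal prostate markers 5 were measured, and their median percentile among the features of an array ran from 88.3 for HOXB13 to 98.3 for KLK3. The basal, stromal and leukocyte markers that were measured had median percentiles from 29.9 for DCN to 67.7 for COL1A1 and CD68.

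ASL stood at intensities of 17.5, 17.0 and 18.8 on the late G1 arrays. It stood at 6.48, 2.59 and 4.41 in early G1, at 4.68 and 4.98 in early S, at 1.60, 3.61 and 5.25 in late S and at 1.48, 0.0101 and 1.14 in G2/M. Every late G1 array lay above every array of the other arrests, and the G2/M arrays were the lowest. The CDT + DHT arrays gave 8.29, 11.3 and 13.1, and the CDT arrays 23.9, 4.32 and 7.77. Late G1 lay above all CDT + DHT arrays, but CDT replicate 1 was higher than any late G1 array, so 16 of the 17 other arrays lay below late G1. On the log2 scale, with a pseudocount of 1, ASL averaged 4.23 ± 0.07 in late G1 (SD, n = 3), 3.55 ± 0.31 in CDT + DHT (n = 3) and 3.39 ± 1.14 in CDT (n = 3). The order of the group means was late G1, CDT + DHT, CDT, early S, early G1, late S and G2/M. From CDT + DHT down to late S, each group's arrays overlapped those of the next in that order, while late S lay above G2/M (2.08 ± 0.64 and 0.81 ± 0.69, n = 3 each) with no overlap.

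RGS11 stood at 14.5, 20.7 and 21.9 on the late G1 arrays. It gave 1.80, 1.96 and 1.91 in early G1, 2.86 and 4.82 in early S, 5.96, 1.80 and 3.64 in late S and 1.91, 7.35 and 7.37 in G2/M. The early G1 arrays were close to one another and low, while late S and G2/M were spread widely. CDT + DHT arrays stood at 6.38, 5.37 and 9.13, and CDT arrays at 7.16, 5.27 and 5.96. All 17 other arrays lay below the lowest late G1 array. On the log2 scale RGS11 averaged 4.30 ± 0.31 in late G1 (SD, n = 3), 2.97 ± 0.34 in CDT + DHT and 2.83 ± 0.19 in CDT (n = 3 each). Below late G1 the order was CDT + DHT, CDT, G2/M, early S, late S and early G1, and each group's arrays overlapped those of the next. Early G1 and early S nevertheless lay wholly below both CDT and CDT + DHT, and the share of all genes that did so was not counted.

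AIFM3 stood at 77.6, 90.2 and 128.2 on the late G1 arrays. It gave 40.9, 17.0 and 32.3 in early G1, 26.7 and 38.4 in early S, 5.51, 21.1 and 14.7 in late S and 20.4, 37.2 and 33.5 in G2/M. Late S held the lowest array and the lowest group mean. CDT + DHT arrays stood at 36.1, 25.8 and 18.9, and CDT arrays at 53.5, 44.2 and 42.5. The lowest late G1 array was above all 17 others, and all 11 arrays of the other arrests were below every CDT array. On the log2 scale AIFM3 averaged 6.61 ± 0.37 in late G1 (SD, n = 3), 4.76 ± 0.45 in CDT + DHT and 5.57 ± 0.17 in CDT (n = 3 each). Below CDT, the second in order, came early S, G2/M, early G1, CDT + DHT and late S, and each of these overlapped the next.

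**Figure D1:**
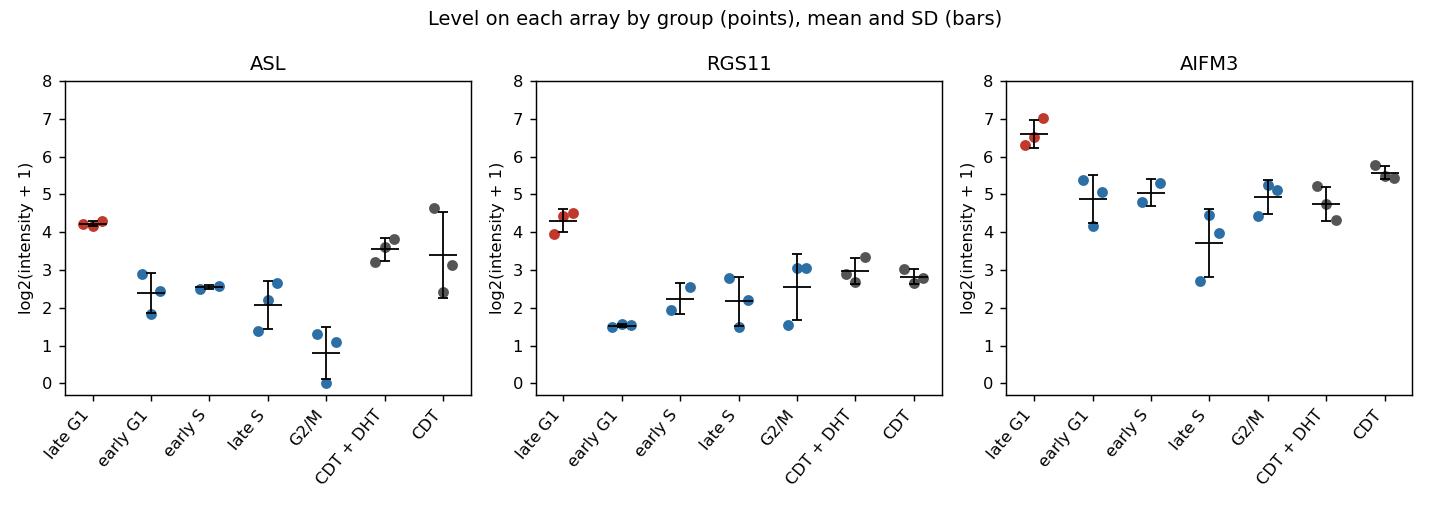
Level of ASL, RGS11 and AIFM3 (1 panel each) on every array, as log2(intensity + 1) on the vertical axis, with the 7 groups along the horizontal axis. Points are arrays, red in late G1, blue in the other arrests and grey in CDT + DHT and CDT, and the bars give the mean and SD of each group. Late G1 means of 4.23, 4.30 and 6.61 were the highest of each panel, and in ASL a single CDT array reached above them.

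The signals of ASL and RGS11 were dim in the other arrests. Ranked among all features of its own array, ASL lay at percentiles 71.8 to 73.8 in late G1, 5.85 to 49.2 in the other arrests and 32.1 to 76.7 in CDT and CDT + DHT together. RGS11 lay at percentiles 70.0 to 75.8, 13.6 to 50.2 and 37.2 to 62.4 in the same sets of arrays. AIFM3 was brighter throughout, at 90.4 to 93.3 in late G1, 47.4 to 83.2 in the other arrests and 76.4 to 87.0 in CDT and CDT + DHT. No detection calls were used here, and a feature's brightness also depends on its probes. RefSeq also lists ASLP1, a pseudogene of ASL, and whether the ASL probes read it was not tested.

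The contrast that chose the genes is given as a description, with no test. Against the mean of the other 4 arrests, late G1 was higher by 2.27 ± 0.45 for ASL (log2 difference ± SE from limma, a 4.84-fold difference on the log2(intensity + 1) scale), by 2.18 ± 0.40 for RGS11 (4.52-fold) and by 1.97 ± 0.42 for AIFM3 (3.91-fold). In this contrast the fit called 0.0163% of all genes higher, which were these 3, and 0.69% lower. The number called higher depended on the settings. It was 15 with a pseudocount of 16, 11 after quantile normalization, 25 with arrayWeights and 2 with the replicate block. Without late G1 replicate 2 or 3 it was 1. The p values of ASL, RGS11 and AIFM3 in this contrast are left out, because they chose the genes and are not support. The next gene by p, named after its values were seen, was KRTAP20-3, a keratin-associated protein gene. Its difference was 2.19 ± 0.52 (adjusted p = 0.0603, limma). All 3 late G1 arrays lay above all 11 arrays of the other arrests for 0.619% of genes, and above all 17 other arrays for 0.271%. The sizes depended on the pseudocount: with one of 16 the differences were 0.80 for ASL, 0.83 for RGS11 and 1.45 for AIFM3. In RNA from a whole culture, more RNA per cell and a larger share of high-expressing cells cannot be told apart.

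Against each single arrest, the late G1 difference of every member was above 0, but which member had the largest one depended on the pseudocount. With a pseudocount of 1, late G1 minus early G1 was 1.84 ± 0.56 for ASL, 2.77 ± 0.50 for RGS11 and 1.73 ± 0.52 for AIFM3. Late G1 minus G2/M was 3.42 ± 0.56 for ASL, 1.75 ± 0.50 for RGS11 and 1.68 ± 0.52 for AIFM3. Set against late S, the differences were 2.15 ± 0.56 for ASL, 2.13 ± 0.50 for RGS11 and 2.89 ± 0.52 for AIFM3. Early S gave 1.69 ± 0.63 for ASL, 2.06 ± 0.56 for RGS11 and 1.56 ± 0.58 for AIFM3. With a pseudocount of 16, AIFM3 had the largest difference against all 4 arrests, at 1.33 for early G1, 1.23 for early S, 1.96 for late S and 1.30 for G2/M, where ASL gave 0.72, 0.70, 0.80 and 1.00 and RGS11 gave 0.96, 0.81, 0.82 and 0.70. ASL intensities in G2/M and RGS11 intensities in early G1 were under 2, so their differences with a pseudocount of 1 follow that choice. RGS11 against G2/M became 1.24 without G2/M replicate 1. These 4 differences share the late G1 arrays, and whether they differ between members was not tested.

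Late G1 also had higher means than both groups that were not arrested. Late G1 minus CDT + DHT was 0.68 ± 0.56 for ASL, 1.34 ± 0.50 for RGS11 and 1.85 ± 0.52 for AIFM3. Against CDT the differences were 0.84 ± 0.56, 1.48 ± 0.50 and 1.04 ± 0.52 in the same order, over a median of -0.15 for all genes. In ASL the CDT comparison rested on single arrays: it was 1.46 without CDT replicate 1, and 0.34 without CDT replicate 2. The late G1 arrays chose the members, so these values carry no test. The fit called 0.0271% of genes higher than in CDT + DHT (5 genes) and 0.00543% higher than in CDT (1 gene), and the 3 members were not among them. Late G1 arrays lay wholly above CDT + DHT for all 3 members, as for 10.8% of all genes, and wholly above CDT for RGS11 and AIFM3, as for 5.52% of all genes.

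The mean of the other 4 arrests was lower than the means of CDT + DHT and CDT, by amounts that differed between members. The mean of these arrests minus CDT + DHT was -1.59 ± 0.45 for ASL, -0.84 ± 0.40 for RGS11 and -0.12 ± 0.42 for AIFM3. In AIFM3 only late S had a lower mean than CDT + DHT, with a difference of -1.04 ± 0.52. Its differences from CDT + DHT were 0.12 ± 0.52 in early G1, 0.29 ± 0.58 in early S and 0.17 ± 0.52 in G2/M. For ASL, all 11 arrays of these arrests lay below every CDT + DHT array, as for 1.99% of all genes. Against CDT the values were -1.44 ± 0.45 for ASL, -0.70 ± 0.40 for RGS11 and -0.93 ± 0.42 for AIFM3, and AIFM3 was the member whose 11 arrays lay wholly below CDT, as for 0.901% of all genes. With a pseudocount of 16 the values against CDT + DHT were -0.47 for ASL, -0.22 for RGS11 and -0.04 for AIFM3. The small value of AIFM3 in the other arrests changed sign without CDT + DHT replicate 1 (0.11) or late S replicate 1 (0.01). These arrays formed the other side of the contrast that chose the members, so no test is given.

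**Figure D2:**
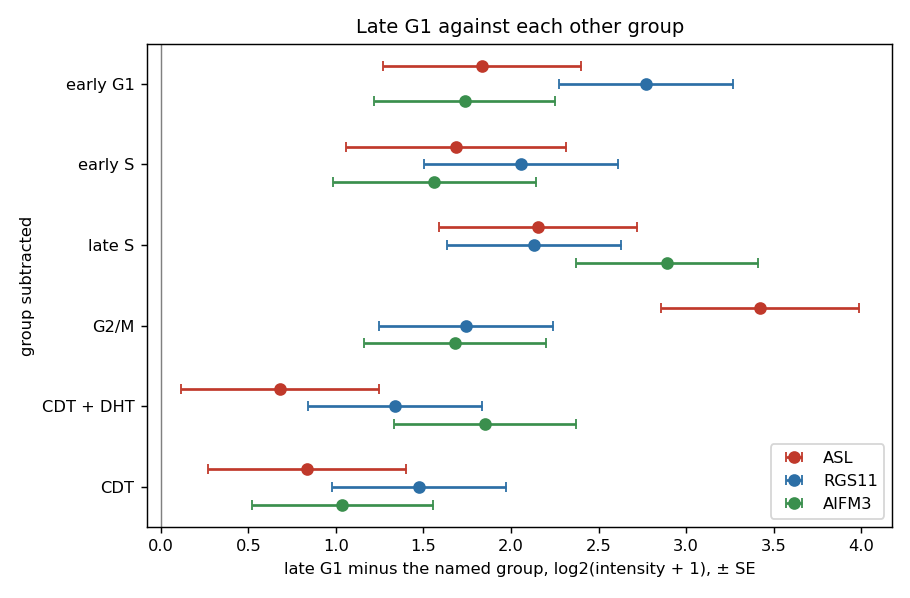
Late G1 minus each of the other 6 groups for ASL (red), RGS11 (blue) and AIFM3 (green), as log2 differences on the horizontal axis with the subtracted group on the vertical axis. Points are limma differences and bars are ± SE. All 18 differences are above 0, from 0.68 for ASL against CDT + DHT to 3.42 for ASL against G2/M.

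DHT alone was tested between 2 groups that were on neither side of the contrast that chose the genes, although all 20 arrays shared its estimate of the spread, and none of the 3 passed. CDT + DHT minus CDT was 0.16 ± 0.56 for ASL (95% interval -1.02 to 1.34, limma adjusted p = 0.977 over all genes) and 0.14 ± 0.50 for RGS11 (-0.90 to 1.18, adjusted p = 0.977). AIFM3 differed by -0.81 ± 0.52 (-1.90 to 0.27, adjusted p = 0.779), and its 3 CDT + DHT arrays all lay below its 3 CDT arrays, as for 5.95% of all genes. In this comparison limma called 0% of genes in either direction, and 6.86% had an unadjusted p below 0.05. The ASL difference became 0.78 without CDT replicate 1 and turned to -0.34 without CDT replicate 2. RGS11 turned to -0.05 without CDT + DHT replicate 3.

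Differences among early G1, early S, late S and G2/M were compared with a moderated F test. Its arrays and its estimate of the spread also entered the contrast that chose the members, through the common mean of these groups, so the p values are given as a description. Over all genes limma called 0.0217% (4 genes) in this test, and none of the members passed. ASL, with G2/M lowest, had an unadjusted p of 0.0309, AIFM3, with late S lowest, one of 0.073, and RGS11, with early G1 lowest, one of 0.251. The limma adjusted p was 0.992 for each. An unadjusted p below 0.05 was found for 3.75% of all genes.

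Correlations between the members were smaller once late G1 was left out. Over the 20 arrays Pearson's r was 0.546 between ASL and AIFM3, 0.592 between RGS11 and AIFM3 and 0.494 between ASL and RGS11. Over the 17 arrays outside late G1 it was 0.292, 0.135 and 0.164 in the same order. For deviations from the group means it was 0.293, -0.064 and -0.184. The points share groups and arrays, and these correlations are descriptions.

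Patterns most like each member were sought over the 20 arrays among 10058 genes with a mean log2 value of at least 3. ASL itself (mean 2.72) and RGS11 (2.68) lay below that level. Closest to ASL were ZNF483, a zinc finger gene (r = 0.888), TNNI2, a troponin gene (0.85), BEX2 (0.837) and ZNF385A (0.826). Over the 17 arrays outside late G1 their r values were 0.807 to 0.857. ZNF483 averaged 4.51 in late G1, 2.59 in the other arrests, 3.69 in CDT + DHT and 4.10 in CDT, the other arrests being lowest. Closest to RGS11 were TPRA1 (0.813), NEURL3, a ubiquitin ligase gene (0.737), PAQR8, a membrane progestin receptor gene (0.725), and RNPEPL1 (0.722), with r values of 0.583 to 0.653 outside late G1. Closest to AIFM3 were UTP14A (0.859) and NIP7 (0.815), both with roles in ribosome assembly, ADAD2 (0.811) and CD247, which encodes a T cell receptor chain (0.809), with 0.728 to 0.794 outside late G1. UTP14A averaged 7.40 in late G1, 6.33 in the other arrests, 6.49 in CDT + DHT and 6.57 in CDT. As a measure of the background over the 20 arrays, 5% of the genes searched had an r of at least 0.445 with ASL, 0.394 with RGS11 and 0.544 with AIFM3. The 17 arrays outside late G1 were among the 20 that picked these genes, so their r values are no separate support. No background was counted for them.

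The 12 nearest measured genes on the chromosomes had late G1 minus other arrests differences of -1.08 to 0.15. Since 0.0163% of genes were called higher, the members themselves, and 0.69% lower, the count of 0 called among the 12 neighbours is near the background. Beside ASL, GUSB, which encodes a lysosomal glucuronidase, had a late G1 minus other arrests difference of -1.08 ± 0.45 and CRCP one of 0.15 ± 0.39 (adjusted p = 0.388 and 0.949, limma), with VKORC1L1 and TPST1 at -0.42 and -0.67. Beside RGS11, FAM234A, whose RefSeq span overlaps RGS11, stood at -0.11 ± 0.43, and LUC7L, ARHGDIG and PDIA2 between -0.31 and 0.04. Beside AIFM3, THAP7 stood at -0.71 ± 0.37 (adjusted p = 0.528, limma), and SNAP29, CRKL and LZTR1 between -0.16 and 0.15.

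**Figure D3:**
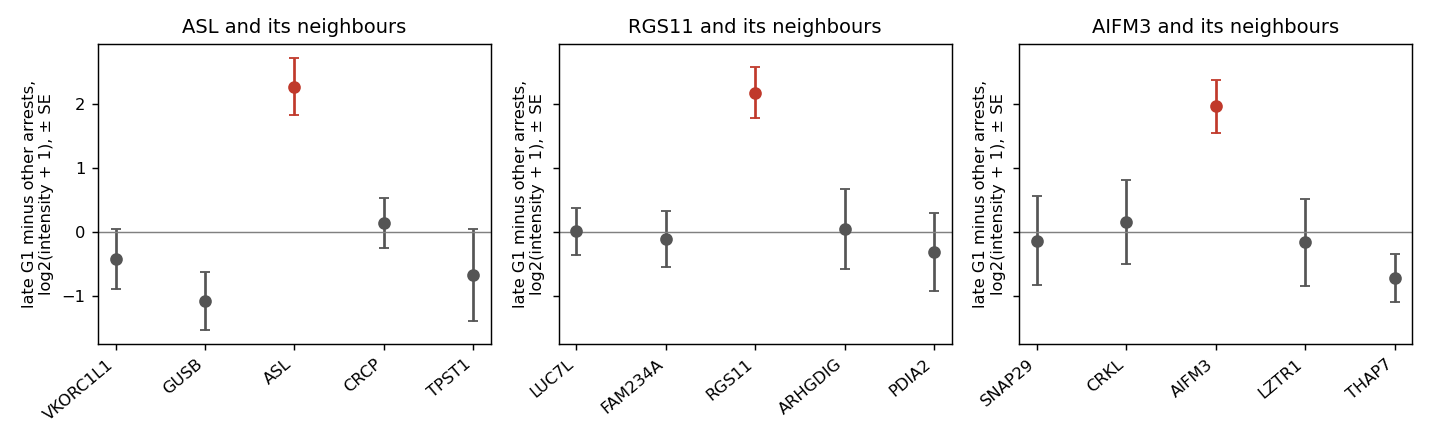
Late G1 minus the other arrests for each member (red) and for the 2 nearest measured genes on either side (grey), in chromosome order along the horizontal axis, as log2 differences with ± SE on the vertical axis. The members stand at 2.27, 2.18 and 1.97, and the 12 neighbours between -1.08 and 0.15.

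The lists of related genes could hold no gene called higher in late G1 against the other arrests, because the 3 members were all the genes so called. Of 21 listed urea cycle, arginine and fumarase-fold genes 20 were measured, and 1 was called lower, against 0.69% of all genes, with a median of -0.05 against -0.09 over all genes. The gene that fell was DDAH2, a homologue of the enzyme DDAH1, which degrades inhibitors of nitric oxide synthase. It averaged 1.91 ± 0.86 in late G1 (SD, n = 3), 4.07 in the other arrests and 4.45 ± 0.70 in CDT + DHT, with a difference of -2.16 ± 0.45 (adjusted p = 0.0291, limma) against the arrests and -2.54 ± 0.56 (adjusted p = 0.0487) against CDT + DHT. Both calls were lost with a pseudocount of 16, at adjusted p = 0.114 and 0.0521 (limma), and without late G1 replicate 1 (0.143 and 0.126) or 3 (0.208 and 0.193). The call against the other arrests was also lost without early S replicate 1 (adjusted p = 0.0581, limma), and the one against CDT + DHT without any single CDT + DHT array or with only these groups in the fit (0.131). ASS1, the partner enzyme of ASL, averaged 4.14 ± 0.21 in late G1, 5.64 in the other arrests, 5.88 ± 0.53 in CDT + DHT and 4.91 ± 0.56 in CDT. Its arrays lay at 3.97 to 4.38 in late G1 and 4.79 to 6.33 in the other arrests, and the difference of -1.50 ± 0.41 did not pass (adjusted p = 0.118, limma). ARG2, a mitochondrial arginase that consumes arginine, differed by -1.14 ± 0.42 (adjusted p = 0.304), and ADSL, a fumarate-releasing lyase of purine synthesis, by 0.34 ± 0.41 (adjusted p = 0.858).

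In the lists of genes related to RGS11, RGS9 and GNAI1 were called, both lower in late G1 than in the other arrests. Of the 8 genes of the R7 complex, all measured, 1 was called lower, against 0.69% of all genes. Their median was -0.66, against -0.09 over all genes. RGS9, an R7 member known from rods, cones and the striatum, fell by 2.08 ± 0.47 (adjusted p = 0.0433, limma), with levels of 0.52 to 1.99 in late G1 and of 2.19 to 4.26 in the other arrests. That call did not pass in 16 of 23 alternative settings. With a pseudocount of 16 the RGS9 difference was -0.52 (adjusted p = 0.202, limma). Others were quantile normalization (adjusted p = 0.0865), centring of the arrays (0.0634) and 10 of the 14 fits that left out 1 array. RGS6 differed by 0.49 ± 0.53, RGS7 by -0.63 ± 0.50 and GNB5, the shared beta subunit, by -0.70 ± 0.65, none of which passed. Of 17 other RGS genes none was called lower, which is near the share of 0.69% over all genes, and their median was 0.21. Among 5 Gi/o alpha subunits, the substrates of RGS proteins, 1 was called lower, against the same share. That was GNAI1, at 0.06 to 2.56 in late G1 and 0.26 to 7.25 in the other arrests, with a difference of -3.74 ± 0.77 (adjusted p = 0.0243, limma). Its means of 1.44 in CDT + DHT and 1.22 in CDT were close to the late G1 mean of 1.03, and its call was lost without late G1 replicate 2 or 3 or early S replicate 2 (adjusted p = 0.166, 0.164 and 0.0618, limma). With a pseudocount of 16 the GNAI1 difference shrank to -1.61 but passed (adjusted p = 0.00108, limma).

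Of 11 listed AIF family genes and mitochondrial death factors, the relatives of AIFM3, 10 were measured, with a median late G1 minus other arrests of 0.10. The count called was 0 against the other arrests, CDT or CDT + DHT, which is near the background of 0.0163% higher and 0.69% lower in the first of these. AIFM1, the founding member, averaged 5.72 ± 0.35 in late G1 and 5.88 in the other arrests, a difference of -0.16 ± 0.50. AIFM2, a lipid-protecting oxidoreductase also known as FSP1, differed by 1.28 ± 0.64 (adjusted p = 0.502, limma) and CHCHD4, the import factor that binds AIFM1, by 0.47 ± 0.36 (adjusted p = 0.73). Against CDT, and against CDT + DHT apart from DDAH2, no gene of the 5 lists was called, where limma called 0.0977% and 0.489% of all genes lower.

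**Figure D4:**
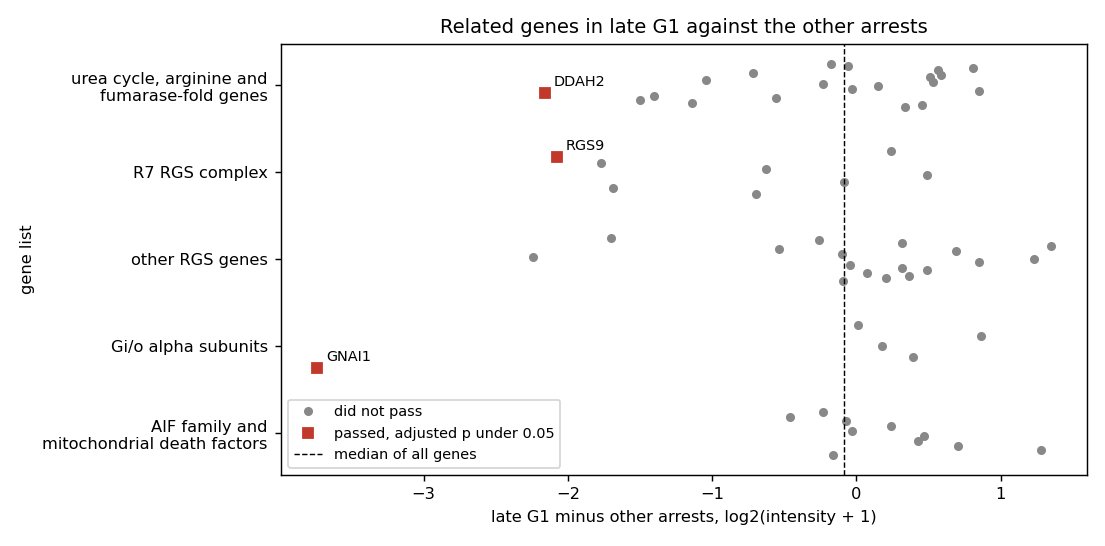
Late G1 minus the other arrests for the measured genes of 5 lists (vertical axis), as log2 differences on the horizontal axis, with each point a gene and red squares marking those that passed limma at an adjusted p under 0.05. The dashed line is the median of all genes, -0.09. DDAH2 (-2.16), RGS9 (-2.08) and GNAI1 (-3.74) are the genes that passed, all lower in late G1.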

How the data were processed

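Per the submitters' processing notes, the authors made the deposited values with Affymetrix Expression Console 1.1. They are probe set intensity values, linear as judged from the values (0 at or below 0, array medians of 5.44 to 9.08). How probes were summarised, and whether arrays were normalized to one another, is not given in the sources used here. Trizol RNA was amplified by a NuGEN whole-transcriptome kit before biotin labelling, per the labels' protocols.

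Of 33297 features, 21214 were listed in the platform annotation, 19460 with 1 gene symbol and 1754 with several. Of those with 1 symbol, 19429 matched RefSeq (GRCh38.p14) by Entrez ID, used for names and gene order. The brightest cluster per gene was kept (769 genes had several), giving 18417 genes. All 20 arrays were used, no 2 of them identical, and their number limits the precision.

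Values were taken as log2(value + 1) and fitted with limma 3.58.1 in R 4.3.3 (lmFit, eBayes, 1 coefficient per group, two-sided, Benjamini-Hochberg over all genes, threshold 0.05). The fit was tested on simulated data. The members, gene lists, markers and alternatives were chosen with earlier results of these data known. Named were the members, list genes that passed, ASS1, ARG2, ADSL, FH, RGS6, RGS7, RGS9, GNB5, AIFM1, AIFM2 and CHCHD4 where measured (FH was not analysed here), the 4 genes most correlated with each member, and 2 neighbours per side. Alternatives were another pseudocount (16), quantile normalization, centring, a dim-gene filter, cluster means, eBayes with trend and robust, arrayWeights, a replicate block, only the compared groups, 4 arrays that stood apart left out, and each array left out.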

Additional observations from a re-analysis of the deposited data

Results flagged for a closer look

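In several groups every array moved one way from the control while every late G1 array moved the other way. These differences were not tested, because the late G1 and other arrest arrays chose the 3 genes. For ASL, late G1 lay above every CDT + DHT array while early G1, early S, late S and G2/M lay below all of them, and late G1 exceeded these groups by 1.84, 1.69, 2.15 and 3.42 on the log2 scale with a pseudocount of 1, which sets the sizes where the intensities are near 0. For RGS11, late G1 lay above all CDT + DHT arrays and all CDT arrays, while early G1 and early S lay below both sets, the late G1 excess being 2.77 over early G1 and 2.06 over early S. For AIFM3, late G1 lay above every CDT array and the other 4 arrests below, with a late G1 excess of 1.73 over early G1, 1.56 over early S, 2.89 over late S and 1.68 over G2/M. Over all genes, late G1 lay wholly above CDT + DHT for 10.8% and wholly above CDT for 5.52%. All arrays of the other arrests lay below all CDT + DHT arrays for 1.99% of genes, and below all CDT arrays for 0.901%. The share for early G1 or early S alone was not counted. CDT + DHT and CDT arrays differ from the arrests in medium as well.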

How the results depend on the processing

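Of 520 recomputed values of the 3 members, 499 kept their direction and stayed within the spread between replicates or on the same side of the threshold. Many of them use the arrays that chose the members, so their direction was largely set by that choice and the count is no support. F test values counted as unchanged while above the threshold, as when the limma adjusted p of ASL went from 0.992 to 0.139 with arrayWeights. A pseudocount of 16 moved late G1 minus other arrests to 0.80 for ASL and 0.83 for RGS11, RGS11 to 0.66 against CDT and 0.61 against CDT + DHT, other arrests minus CDT + DHT to -0.47 for ASL and -0.22 for RGS11, and turned ASL in CDT + DHT minus CDT to -0.00039. ASL and RGS11 were left out by the filter on dim genes and have no value there. With single arrays left out, late G1 minus other arrests ran from 2.17 to 2.35 for ASL, 2.05 to 2.35 for RGS11 and 1.76 to 2.12 for AIFM3. CDT + DHT minus CDT then ran from -0.34 to 0.78 for ASL and from -0.048 to 0.29 for RGS11, and other arrests minus CDT + DHT from -0.34 to 0.11 for AIFM3. The causes were not tested.

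Counts of called genes moved more. Late G1 against the other arrests gave 130 genes, but 197 with the dim filter, 377 with arrayWeights, 81 with only these groups, 406 without the 4 arrays that stood apart and 33 to 230 without single arrays. Late G1 against CDT gave 19, but 79 with a pseudocount of 16, 65 with the dim filter, 55 with trend and robust, 82 with arrayWeights, 0 with only these groups and 4 to 26 without single arrays. Late G1 against CDT + DHT gave 95, but 443 with a pseudocount of 16, 214 after quantile normalization, 228 after centring, 294 with the dim filter, 256 with trend and robust, 1079 with arrayWeights, 46 with the replicate block, 0 with only these groups, 61 without the 4 arrays and 10 to 59 without single arrays. CDT + DHT against CDT gave 0, but 4 with a pseudocount of 16, 2 with trend and robust, 12 with arrayWeights and up to 2 without single arrays. The F test among 4 arrests gave 4, but 29 with a pseudocount of 16, 8 after quantile normalization, 8 after centring, 12 with the dim filter, 22 with trend and robust, 105 with arrayWeights, 2 with the replicate block, 2 with only these groups, 2 without the 4 arrays and 2 to 5 without single arrays.

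The replicate numbers did not pair the arrays: deviations of same-numbered arrays correlated at a median of -0.0216, and of others at 0.0319. The replicate block left every direction of the members in place. With it the DDAH2 calls, at adjusted p = 0.0574 and 0.0768, and the RGS9 call, at 0.0837 (limma), did not pass.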
